A study of Mus musculus with 22 samples.

Results

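The genes described here are 8 mouse genes of polyamine metabolism: the enzymes Odc1, Amd1, Srm, Sms and Sat1, the antizymes Oaz1 and Oaz2, and the antizyme inhibitor Azin1. They were taken by symbol and joined between the assays by Ensembl gene identifier. Of the 8 genes, 7 were among the 23081 genes of the footprint tables and 8 were among the 22623 genes of the mRNA files, where 6 had reads. Oaz2 was in the mRNA files only. Amd1 and Sms were listed at 0 reads in every mRNA library although both carried footprints, so a listed 0 does not show that either mRNA was absent.

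Cultured cortical neural stem cells (NSCs) were profiled by RNA-Seq of polyA-selected RNA in 14 libraries and by ribosome footprinting (Ribo-Seq) in 8 libraries. The inducible cells were KH2 control cells, tetO-Msi1 cells and tetO-Msi2 cells, with or without doxycycline (Dox) at 1 µg/ml for 72 h. They came from E12.5 embryos. Cells from E13.5 embryos were profiled by RNA-Seq for untreated KH2 and for both treatments of tetO-Msi1. The floxed cells, from E12.5 embryos, carried conditional Msi1 and Msi2 alleles and were sampled with or without 4-hydroxytamoxifen (4-OHT) at 48 h. Line C1 had no Cre and line C4 carried a Cre. KH2 cells given Dox and C1 cells given 4-OHT therefore received the drug without the transgene or the deletion. Each condition was a single library per assay, apart from tetO-Msi1 cells without Dox at E13.5, which had a technical pair. Tests over lines or stages used the disagreement between lines or stages as the error, drawn mostly from all genes pooled rather than from the gene itself. Such p-values measure that spread only, and a gene can pass although its own lines or stages disagree.

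Polyamines are small positively charged molecules that proliferating cells need and that bind nucleic acids. Ornithine decarboxylase makes putrescine, and S-adenosylmethionine decarboxylase supplies the groups with which spermidine synthase and spermine synthase lengthen it. Antizymes bind ornithine decarboxylase and send it to the proteasome, antizyme inhibitor binds the antizymes, and an acetyltransferase starts the breakdown of the longer polyamines. Several of these steps are controlled during translation: antizyme mRNAs need a ribosomal frameshift that polyamines favour, and the decarboxylase mRNAs have short upstream reading frames in their leaders.

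The frameshift sites of the antizyme genes are shown because they are the feature that sets these mRNAs apart from the other members, and because they mark where the annotation breaks the reading frame. The capitals mark the stop codon that ends the first reading frame. The sequences are from mouse build mm9 (NCBIM37) at chr10:80291023-80291052 (+) for Oaz1, chr9:65534062-65534091 (+) for Oaz2 and chr3:94239942-94239971 (-) for Oaz3, a further antizyme that is not one of the 8 genes.
Oaz1: ggcctcggtggtgctccTGAtgtccctcac
Oaz2: ggcctctgtggtgctccTGAtgcccctcac
Oaz3: tgcctccagtgctccTGAgtccctaggagg
In Oaz1 this stop followed 68 codons in frame with the annotated start, and each annotated transcript left out 4 bases at the site. The annotation gave Oaz2 no coding sequence (processed transcript). Footprints were counted per gene, so reads before and after the site were not separated.

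The other genes lie on mm9 at chr12:17551679-17558308 (+) for Odc1, chr15:38417185-38449021 (-) for Azin1, chr10:40007265-40021992 (-) for Amd1 and chr4:147965612-147969102 (+) for Srm. Both X-linked members are on the minus strand, Sms at chrX:153881787-153930219 and Sat1 at chrX:151647675-151650992. The footprint exons of all 7 genes lay inside annotated coding sequence. They covered 1241 nt of Odc1, 681 nt of Oaz1, 1005 nt of Amd1, 909 nt of Srm and 475 nt of Sat1, but only 102 nt of Azin1 and 94 nt of Sms, each a single exon. In the longest annotated coding transcript, the Amd1 leader of 328 nt held 1 closed upstream reading frame of 6 codons, which starts 12 nt into the leader. The Odc1 leader of 410 nt held 2 closed upstream frames and the Azin1 leader of 590 nt held 3. The Sms leader of 334 nt held 3 and the Sat1 leader of 281 nt held 1. The Oaz1 and Srm leaders, of 104 and 117 nt, held no ATG, whereas 53.4% of 18795 annotated leaders held at least 1.

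Library totals ran from 7889966 to 60791605 reads in RNA-Seq and from 657288 to 6381242 in Ribo-Seq. The deposited RPKM values did not share a scale: the E12.5 inducible RNA-Seq libraries sat between 0.53 and 0.57 below the mean library for the median gene (log2), and the C1 footprint library without 4-OHT sat 1.76 above it. Changes within a pair of libraries are therefore given as log2 RPKM ratios centred on the median gene, with a 95% interval that covers counting error only. Msi1 mRNA in tetO-Msi1 cells was 19.7 RPKM without Dox and 108 with Dox at E12.5. Msi2 mRNA in C4 cells was 39.5 RPKM without 4-OHT and 4.54 with it, whereas Msi1 mRNA was 9.46 and 9.42. Msi1 footprints in C4 cells were 2.82 RPKM (56 reads) without 4-OHT and 1.11 (20 reads) with it. In C1 cells they were 23.7 RPKM (424 reads) and 8.26 (135 reads), all as deposited. Of 7 neural stem and radial glia markers, 6 were in the files and all 6 were at 1 RPKM or more in every RNA-Seq condition. Summed endothelial, microglial and fibroblast markers reached at most 0.809 RPKM. Neuron markers (4 of 6 in the files) summed to 4.46 to 14.6 RPKM, astrocyte markers (4 of 4) to 64.8 to 392 RPKM and oligodendrocyte lineage markers (2 of 4) to 69.2 to 344 RPKM, and none of these genes was at 0 in all 13 conditions.

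Odc1, the decarboxylase that opens the pathway, had the largest footprint difference with 4-OHT among Odc1, Oaz1 and Srm, the members with the most footprint reads. Its footprints were 41.3 RPKM (1145 reads) in C1 cells without 4-OHT and 6.68 RPKM (169 reads) with it. In C4 cells they were 7.23 RPKM (222 reads) without 4-OHT and 3.62 RPKM (101 reads) with it. The treated library was the lower of its pair in both lines. After centring, the change was -1.19 (95% interval -1.42 to -0.95) in C1 and -0.86 (-1.20 to -0.52) in C4. Odc1 footprints fell over both lines by 1.02 on the log2 scale (SE 0.22, edgeR quasi-likelihood test with Benjamini-Hochberg adjustment, adjusted p = 0.0145). Across all 12426 genes tested, 0.934% were called, 102 higher and 14 lower. The call ended without the term for line (adjusted p = 0.695). Cre-less C1 cells showed the difference as well as C4 cells, and C4 minus C1 was 0.33 (-0.08 to 0.74).

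Neuron marker footprints were also lower in both treated floxed libraries. The 5 of 6 listed neuron markers in the footprint tables summed to 103 RPKM in C1 cells without 4-OHT and 22.2 with it, and to 29.2 and 13.4 RPKM in C4 cells, centred changes of -0.77 and -0.98. All 3 with more than 5 reads in both libraries of the pair (Tubb3, Dcx and Stmn2) were lower after centring, by values from -1.07 to -0.71 in C1 and from -2.03 to -0.58 in C4, and Rbfox3 was at 0 in all 4 floxed libraries. The summed astrocyte markers were centred at 0.099 in C1 and -0.71 in C4, those of the oligodendrocyte lineage at 0.83 and 0.56, and those of neural stem cells and radial glia at 0.11 and 0.21. Microglial, endothelial and fibroblast markers summed to at most 1.05 RPKM in these libraries. The mRNA of Tubb3, Dcx and Stmn2 was 6.45, 2.70 and 1.67 RPKM in C1 cells without 4-OHT and 5.98, 2.90 and 1.29 with it. In C4 cells it was 8.02, 3.74 and 1.44 RPKM without 4-OHT and 6.13, 3.20 and 1.00 with it. The part of these markers in the Odc1 footprint difference was not tested.

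Odc1 mRNA differed less than its footprints. It was 29.6 RPKM in C1 cells without 4-OHT and 26.5 with it, and 36.6 and 29.1 in C4 cells. The fitted difference over both lines was -0.28 (SE 0.08, edgeR adjusted p = 0.0784), which did not pass the threshold, although it did when no filter on low counts was applied (adjusted p = 0.0154). Translation efficiency (TE), the footprint RPKM over the mRNA RPKM, was 1.39 and 0.252 in C1 cells and 0.198 and 0.125 in C4 cells, in the order without and with 4-OHT. The fitted TE difference was -0.76 (SE 0.19, edgeR adjusted p = 0.55). In that test 0% of 10490 genes were called by edgeR, with 934 at an unadjusted p under 0.05, and DESeq2 called 3.

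The Odc1 differences with Dox went in opposite directions in transgenic and control cells. At E12.5, Odc1 mRNA in tetO-Msi1 cells was 5.88 RPKM untreated and 9.39 after Dox. For tetO-Msi2 the values were 3.10 and 6.86, and for KH2 they were 8.26 and 6.85. The centred change was 0.69 (0.53 to 0.85) in tetO-Msi1 cells, 1.11 (0.91 to 1.32) in tetO-Msi2 cells and -0.23 (-0.37 to -0.09) in KH2 cells. The tetO-Msi1 change exceeded the KH2 change by 0.92 (0.70 to 1.13) and the tetO-Msi2 change exceeded it by 1.34 (1.10 to 1.59). Both comparisons used the same KH2 libraries, and neither has a replicate. At E13.5, where no KH2 library with Dox was analysed, tetO-Msi1 cells had 17.2 RPKM without Dox (17.1 and 17.3 in the technical pair) and 22.0 with it, a centred change of 0.27 (0.21 to 0.34).

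No fitted test called Odc1 with Dox. Over both stages of tetO-Msi1 cells the difference was 0.46 (SE 0.16, edgeR adjusted p = 0.0975), with 3.6% of 11938 genes called. Over the E12.5 lines together it was 0.49 (SE 0.17, edgeR adjusted p = 0.225), with 0.451% of 11969 genes called. Leaving out the KH2 libraries gave 0.88 (adjusted p = 0.00228), and applying no filter on low counts gave 0.49 (adjusted p = 0.000425). Odc1 footprints in tetO-Msi1 cells were 3.59 RPKM (125 reads) without Dox and 3.75 (39 reads) with it, and the centred TE change was -0.66 (-1.20 to -0.11). In KH2 cells the TE change was 0.09 (-0.47 to 0.64).

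**Figure D1:**
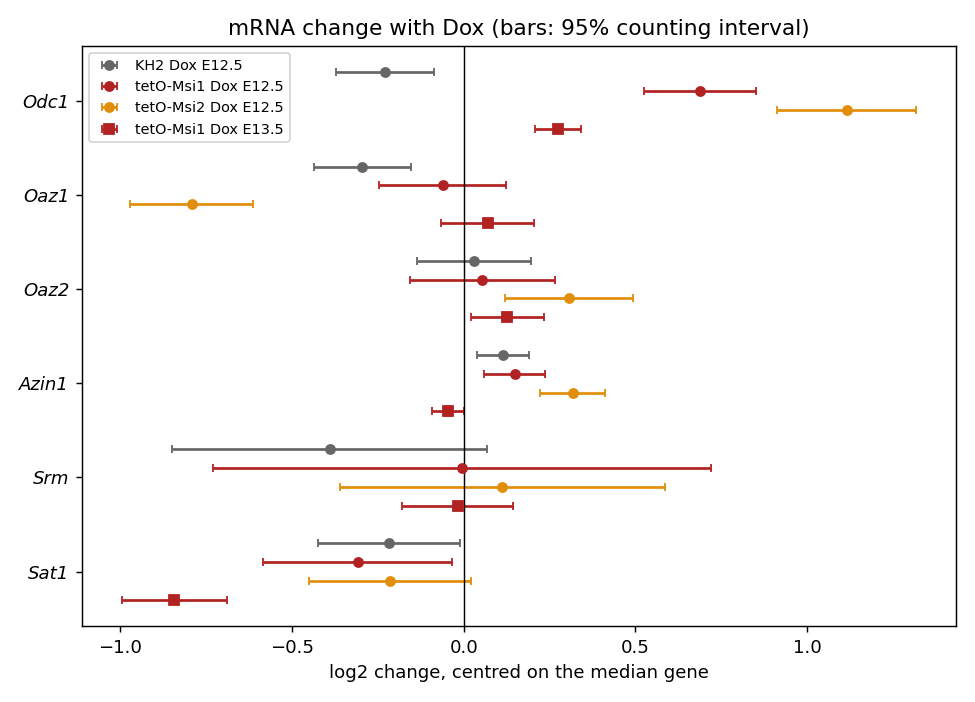
Change in mRNA with Dox for the 6 members with RNA-Seq reads, as the centred log2 ratio of RPKM on the horizontal axis, with 1 point per pair of libraries and bars for the 95% counting interval. Odc1 lies at 0.69 and 1.11 in the E12.5 transgenic cells and at -0.23 in KH2 cells, and Sat1 is furthest from 0 in tetO-Msi1 cells at E13.5 (-0.84).

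Oaz1 encodes the antizyme that binds ornithine decarboxylase. Its footprints were 38.5 RPKM (586 reads) in C1 cells without 4-OHT and 20.7 (288 reads) with it, and 12.8 (215 reads) and 15.8 (242 reads) in C4 cells. As deposited, the values go down in C1 and up in C4. The direction in C1 depends on the scaling: after centring, the change was 0.55 (0.34 to 0.75) in C1 and 0.45 (0.19 to 0.72) in C4. The fitted footprint difference was 0.51 (SE 0.20, edgeR adjusted p = 0.497) and the fitted TE difference was 0.59 (SE 0.21, edgeR adjusted p = 0.55), so neither passed.

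Oaz1 mRNA was 11.1 and 8.96 RPKM in C1 cells and 6.31 and 7.53 RPKM in C4 cells, in the order without and with 4-OHT. The E12.5 values without and with Dox were 18.7 and 14.8 RPKM for KH2 and 15.2 and 9.00 RPKM for tetO-Msi2, and for tetO-Msi1 the centred change was -0.06 (-0.25 to 0.12). The tetO-Msi2 change of -0.79 (-0.97 to -0.61) lay below the KH2 change of -0.29 (-0.44 to -0.15) by 0.50 (-0.73 to -0.27 as tetO-Msi2 minus KH2). Over the E12.5 lines the fitted difference was -0.38 (SE 0.12, edgeR adjusted p = 0.174). It passed without the tetO-Msi1 libraries (-0.53, adjusted p = 0.00711) and with no filter on low counts (adjusted p = 0.0136).

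Oaz1 had the highest TE of the 5 members for which it could be computed in all 8 library pairs when each assay used its own length. With 1 length for both assays it was highest in 4 and Srm in the other 4. Srm mRNA was counted over 83 nt and its footprints over 909 nt, so 1 length raises its TE by construction. The rank of Srm in that setting therefore cannot be read as a level of translation. The Oaz1 TE was between 3.50 and 16.2 times that of the median gene, at percentile 94.8 to 98.1 of genes with more than 5 reads in both assays. Its mRNA and footprint values cover regions of 444 and 681 nt.

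**Figure D2:**
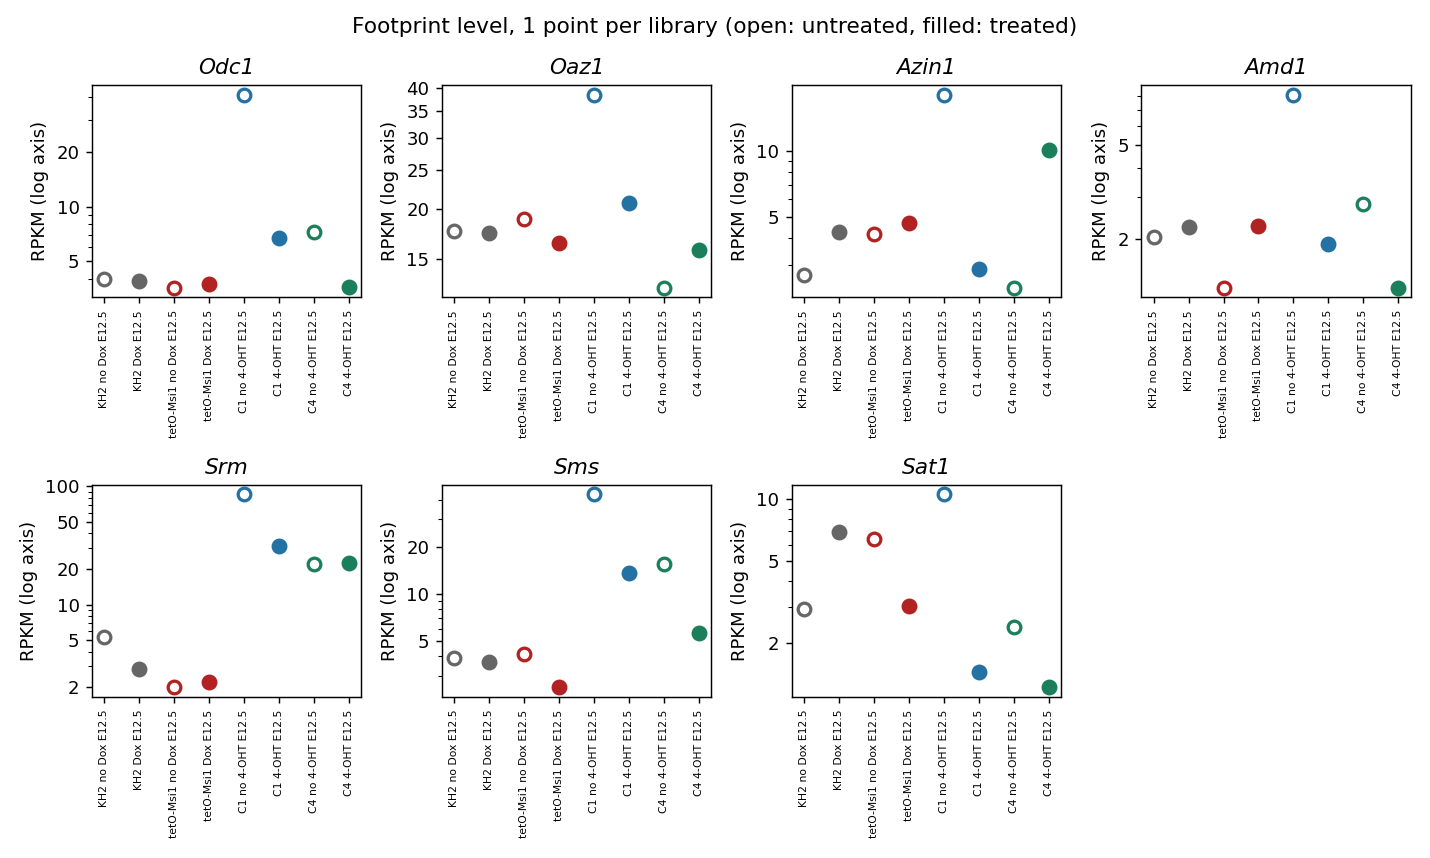
Footprint level of the 7 members in the footprint tables, as deposited RPKM on a log axis, with 1 point per library, open for untreated and filled for treated. The C1 library without 4-OHT is the highest for all 7 genes, and Odc1 in it is at 41.3 RPKM.

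The ratio of Odc1 to Oaz1 within a library does not depend on scaling between libraries. For KH2 the footprint ratio was 0.228 untreated and 0.224 after Dox, and for tetO-Msi1 it was 0.189 and 0.228. In C1 cells it was 1.07 (0.971 to 1.18) without 4-OHT and 0.322 (0.266 to 0.389) with it. In C4 cells it was 0.567 (0.470 to 0.683) without and 0.229 (0.182 to 0.289) with it. The intervals did not overlap within either floxed line, and both treated values were nearer to those of the inducible cells.

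The mRNA ratio had another pattern. In C1 cells it was 2.67 (2.48 to 2.87) without 4-OHT and 2.96 (2.72 to 3.22) with it, with intervals that overlapped. In C4 cells it was lower with 4-OHT, at 5.79 (5.23 to 6.41) without and 3.86 (3.54 to 4.21) with it. In tetO-Msi2 cells it was 0.203 (0.176 to 0.235) without Dox and 0.763 (0.676 to 0.860) with it, and in tetO-Msi1 cells at E12.5 0.414 (0.376 to 0.456) and 0.697 (0.605 to 0.802). In KH2 cells it was 0.442 (0.398 to 0.492) and 0.463 (0.424 to 0.506).

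**Figure D3:**
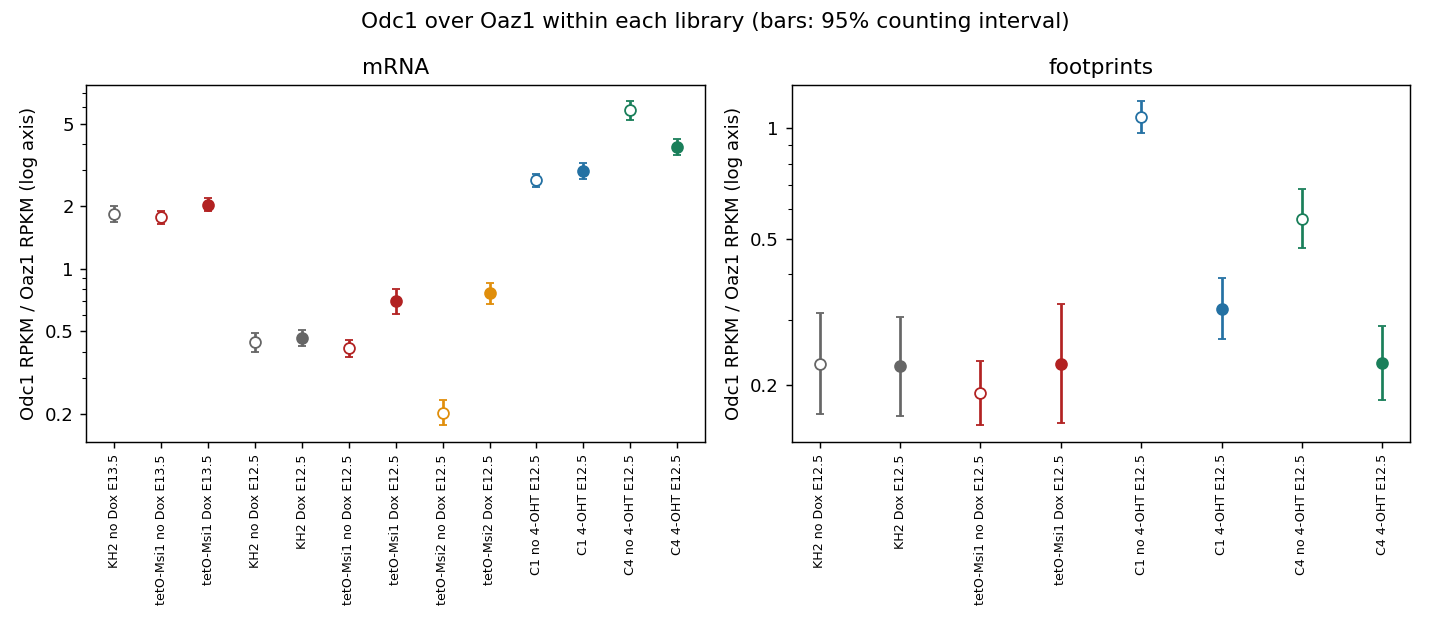
Ratio of Odc1 to Oaz1 RPKM within each library on a log axis, for mRNA (left) and footprints (right), with 95% counting intervals, open for untreated and filled for treated. The footprint ratio is at 1.07 and 0.567 in untreated C1 and C4 cells and between 0.189 and 0.322 in the other 6 libraries.

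Oaz2, a second antizyme, had mRNA levels between 12.4 and 15.8 RPKM in the E12.5 inducible cells, between 20.1 and 27.2 at E13.5, and between 22.2 and 24.9 in the floxed cells. No test called it, with fitted differences of 0.10 with Dox over both stages of tetO-Msi1 cells (edgeR adjusted p = 0.87), -0.11 with 4-OHT (adjusted p = 0.625) and 0.13 with Dox over the E12.5 lines (adjusted p = 0.631).

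Azin1, the antizyme inhibitor, had more mRNA than either antizyme in every condition on the RPKM scale. It was between 24.2 and 38.3 RPKM in the E12.5 inducible cells, between 56.1 and 58.7 at E13.5, and between 70.9 and 83.5 in the floxed cells. Its fitted mRNA differences were 0.04 with Dox over both stages of tetO-Msi1 cells, -0.19 with 4-OHT (edgeR adjusted p = 0.20) and 0.19 with Dox over the E12.5 lines (adjusted p = 0.28). Its footprints rested on 3 to 41 reads over 102 nt. In C4 cells they were 6 reads without 4-OHT and 23 with it, and in C1 cells 41 and 6. The centred TE change was 2.55 (1.25 to 3.85) in C4 and -1.12 (-2.35 to 0.12) in C1.

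Of the members eligible in each pair, Azin1 in C4 cells was the only one past a 3-fold TE change with an mRNA change under 1.5-fold. This was 1 of 5 members eligible in C4 cells, where 2.21% of all genes passed. No member passed in C1 cells (0 of 5), KH2 cells (0 of 4) or tetO-Msi1 cells (0 of 3), where 2.31%, 1.15% and 1.16% of genes passed. These pairs have no replicate and no test.

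Amd1 encodes S-adenosylmethionine decarboxylase, and only its footprints could be read. They were 8.15 RPKM (183 reads) in C1 cells without 4-OHT and 1.90 (39 reads) with it, and 2.81 (70 reads) and 1.24 (28 reads) in C4 cells. The treated library was the lower in both lines. The centred change was -0.66 (-1.16 to -0.16) in C1 and -1.04 (-1.67 to -0.41) in C4, and the fitted difference of -0.83 (SE 0.35, edgeR adjusted p = 0.557) did not pass. The values untreated and after Dox were 2.02 and 2.24 RPKM for KH2 and 1.24 and 2.26 RPKM for tetO-Msi1. Amd2 is a near copy of Amd1, and how reads that fit both genes were counted is not given in the sources used here.

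Srm, spermidine synthase, was the member that differed most between lines. Its mRNA was 4.82 to 9.76 RPKM in the untreated inducible cells at E12.5, 37.8 and 63.6 in the untreated cells at E13.5, and 175 and 185 in untreated C4 and C1 cells. On a common scale set by the median gene, the untreated floxed cells were 11.7-fold above the untreated inducible cells at E12.5, at percentile 98.8 of genes. Its footprints were 1.997 and 5.28 RPKM in untreated tetO-Msi1 and KH2 cells and 21.9 and 85.7 in untreated C4 and C1 cells, a 6.21-fold difference on the common scale. The RNA-Seq value rests on 83 nt and on 55 to 67 reads in the untreated inducible cells.

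Odc1 was also higher in the untreated floxed cells, with mRNA 2.98-fold and footprints 2.12-fold higher on the common scale, and Oaz1 mRNA was lower (0.253-fold). These 3 of the 6 members with a value did not overlap between groups and were at least 2-fold apart in mRNA, as were 31.6% of all genes. In footprints 2 of the 5 members with more than 5 reads throughout, Srm and Odc1, met the same limits, as did 37% of all genes. Odc1 and Srm were higher and Oaz1 mRNA lower in the floxed cells also on the deposited scale. On the deposited scale the summed astrocyte, oligodendrocyte lineage and neuron markers were higher in the floxed cells too. So was the sum of the neural stem and radial glia markers. Over the 6 inducible conditions at E12.5 and the 4 floxed conditions, the summed mRNA was 64.8 to 134 and 280.1 to 392 RPKM (astrocyte), 69.2 to 95.3 and 238 to 344 RPKM (oligodendrocyte lineage), and 4.46 to 7.97 and 11.4 to 14.6 RPKM (neuron). For neural stem and radial glia it was 2036 to 2708 and 5101 to 5602 RPKM. These sums are not on the common scale. For the median gene (log2), these inducible libraries stood at -0.57 to -0.53 against the mean library and the floxed ones at 0.48 to 0.57. Gfap, the astrocyte filament, was at most 0.955 RPKM in those inducible conditions and 56.6 to 151 RPKM in the floxed ones. The next values are for untreated inducible cells at E12.5, then for untreated C4 and C1 cells. Aldh1l1, also an astrocyte marker, was at 69.7 to 122 RPKM, then 142 and 172. Sox10 of the oligodendrocyte lineage was at 1.97 to 6.55 RPKM, then 9.47 and 2.88. The stem cell marker Hes5 went the other way, at 79.7 to 124 RPKM, then 6.97 and 8.42. The part of these markers in the differences was not tested. Which libraries were prepared or sequenced together is not given in the sources used here, line and scale cannot be told apart, and there is no test. The comparison and its 2-fold limit were chosen after the values were seen.

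All 6 members with mRNA reads differed between stages in the same direction in both untreated inducible lines that were profiled at E12.5 and E13.5, with counting intervals that left out 0, as did 63.6% of 10441 genes. On the common scale Srm mRNA was 3.11-fold higher at E13.5 than at E12.5 in untreated KH2 cells and 4.16-fold higher in untreated tetO-Msi1 cells. Odc1 was 1.61-fold and 1.55-fold higher, and Oaz1 was at 0.389 and 0.362 of its E12.5 level. The other members were lower at E13.5, Oaz2 at 0.818 and 0.815, Azin1 at 0.771 and 0.854, and Sat1 at 0.572 and 0.809 of the E12.5 level. Stage and scale cannot be told apart either. In the 3 conditions at E13.5 the summed mRNA of the astrocyte markers was 191 to 259 RPKM, that of the oligodendrocyte lineage markers 164 to 252 RPKM and that of the neuron markers 13.4 to 14.5 RPKM, and Gfap was 12.8 to 26.2 RPKM. The neural stem and radial glia markers summed to 4984 to 5098 RPKM. These marker values are as deposited, not on the common scale. For the median gene the E13.5 libraries stood at 0.35 to 0.53 against the mean library (log2). The part of these markers in the stage differences was not tested.

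**Figure D4:**
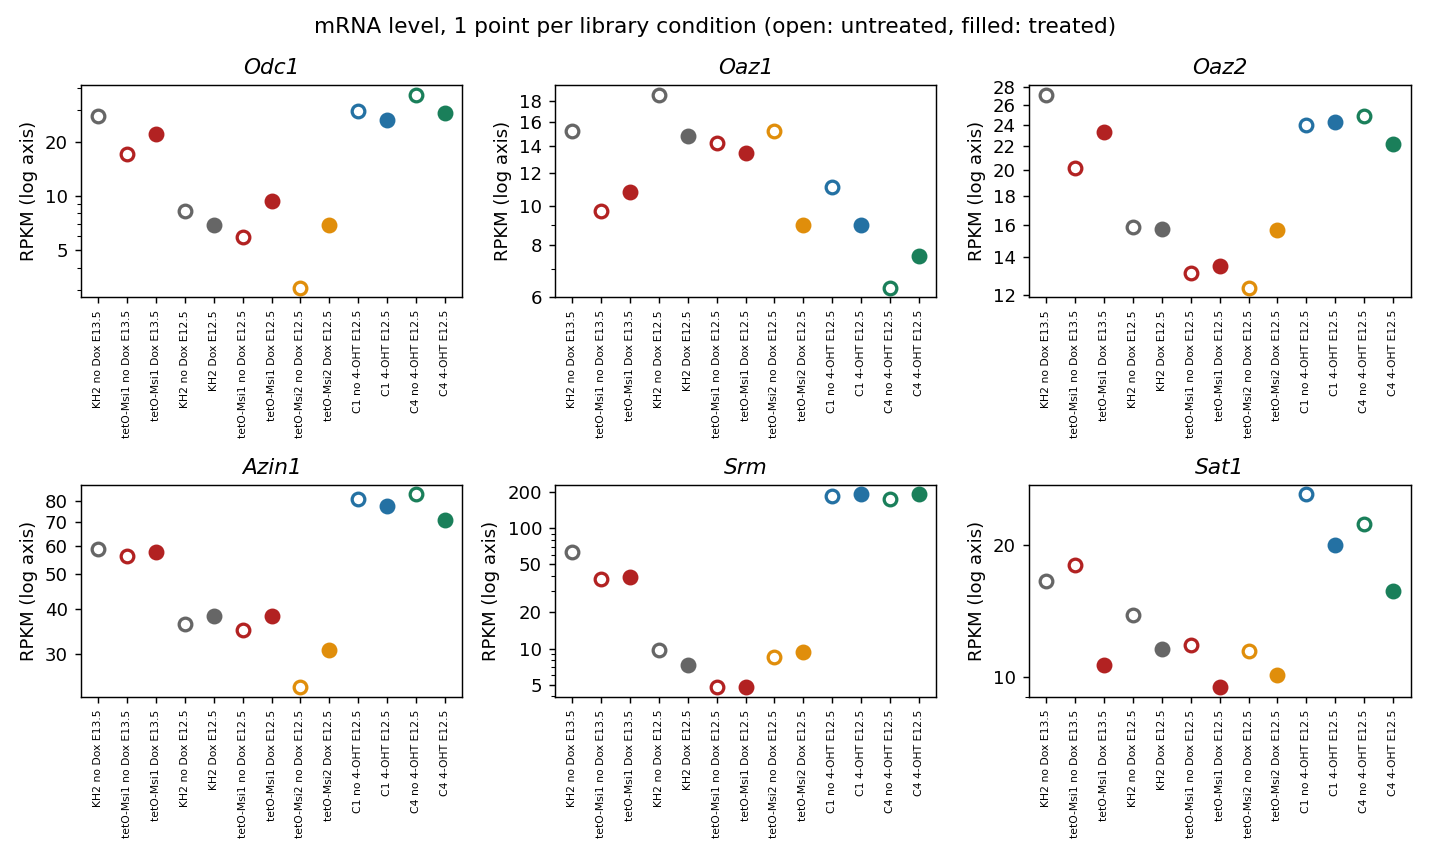
mRNA level of the 6 members with RNA-Seq reads, as deposited RPKM on a log axis, with 1 point per condition, open for untreated and filled for treated. Srm is below 10 RPKM in the E12.5 inducible cells and at 175 RPKM or above in the floxed cells, and the E12.5 inducible libraries share a lower scale.

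Srm did not pass any test of treatment. With 4-OHT its mRNA was 185 and 191 RPKM in C1 cells and 175 and 191 in C4 cells, and its footprints were centred at -0.02 (-0.15 to 0.12) in C1 and 0.19 (0.0022 to 0.37) in C4. The fitted mRNA difference was 0.05 (SE 0.07, edgeR adjusted p = 0.771) and that of footprints 0.09 (SE 0.17, edgeR adjusted p = 0.983). Srm had 461 to 1742 footprint reads in the floxed libraries. Its TE was 0.463 and 0.125 in untreated C1 and C4 cells, at percentiles 37.4 and 37.8, but its mRNA value covers 83 nt and its footprints 909 nt.

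Sms, spermine synthase, rested on 94 nt and on 2 to 91 footprint reads. Its footprints were 43.3 and 13.6 RPKM in C1 cells and 15.5 and 5.69 RPKM in C4 cells, in the order without and with 4-OHT. The centred change was -0.23 (-0.86 to 0.39) in C1 and -1.31 (-2.25 to -0.36) in C4, and the fitted difference was -0.70 (SE 0.49, edgeR adjusted p = 0.845). In the inducible cells it had 2 to 11 reads, too few for a comparison.

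Sat1, the acetyltransferase that starts polyamine breakdown, was the member called in both mRNA tests that called any. Its mRNA was 26.2 RPKM in C1 cells without 4-OHT and 20.1 with it, and 22.4 and 15.7 in C4 cells. In tetO-Msi1 cells it was 11.8 without Dox and 9.45 with it at E12.5, and 18.0 and 10.6 at E13.5. The treated library was the lower in all 4 of these pairs.

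Sat1 mRNA fell with 4-OHT by 0.48 on the log2 scale over both lines (SE 0.11, edgeR adjusted p = 0.0406), where 5.5% of 11626 genes were called. It fell with Dox by 0.62 over both stages of tetO-Msi1 cells (SE 0.19, edgeR adjusted p = 0.0367), where 3.6% of genes were called. DESeq2 called neither (adjusted p = 0.105 with 4-OHT and 0.462 with Dox). The third mRNA test, Dox over the E12.5 lines, gave -0.25 (SE 0.11, edgeR adjusted p = 0.346) and did not pass. Sat1 mRNA in tetO-Msi2 cells was 11.4 RPKM without Dox and 10.1 with it, a centred change of -0.22 (-0.45 to 0.02). KH2 cells given Dox also had less Sat1, 13.8 and 11.5 RPKM, with a centred change of -0.22 (-0.42 to -0.01), and the tetO-Msi1 change at E12.5 differed from it by -0.09 (-0.44 to 0.25). At E13.5 the centred change was -0.84 (95% interval from -0.996 to -0.69), and no KH2 library with Dox was analysed at that stage.

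Sat1 footprints were 10.5 RPKM (112 reads) and 1.45 (14 reads) in C1 cells and 2.38 (28 reads) and 1.22 (13 reads) in C4 cells, in the order without and with 4-OHT. The fitted difference was -1.13 (SE 0.52, edgeR adjusted p = 0.606) and did not pass. KH2 libraries held 2.92 RPKM (15 reads) of Sat1 footprints untreated and 6.93 (38 reads) after Dox, and tetO-Msi1 libraries held 6.37 (85 reads) and 3.02 (12 reads). The centred changes were 1.15 (0.29 to 2.02) and -1.11 (-1.98 to -0.24). No fitted TE test with Dox called a member, and 0.0791% of 10111 genes were called.

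**Figure D5:**
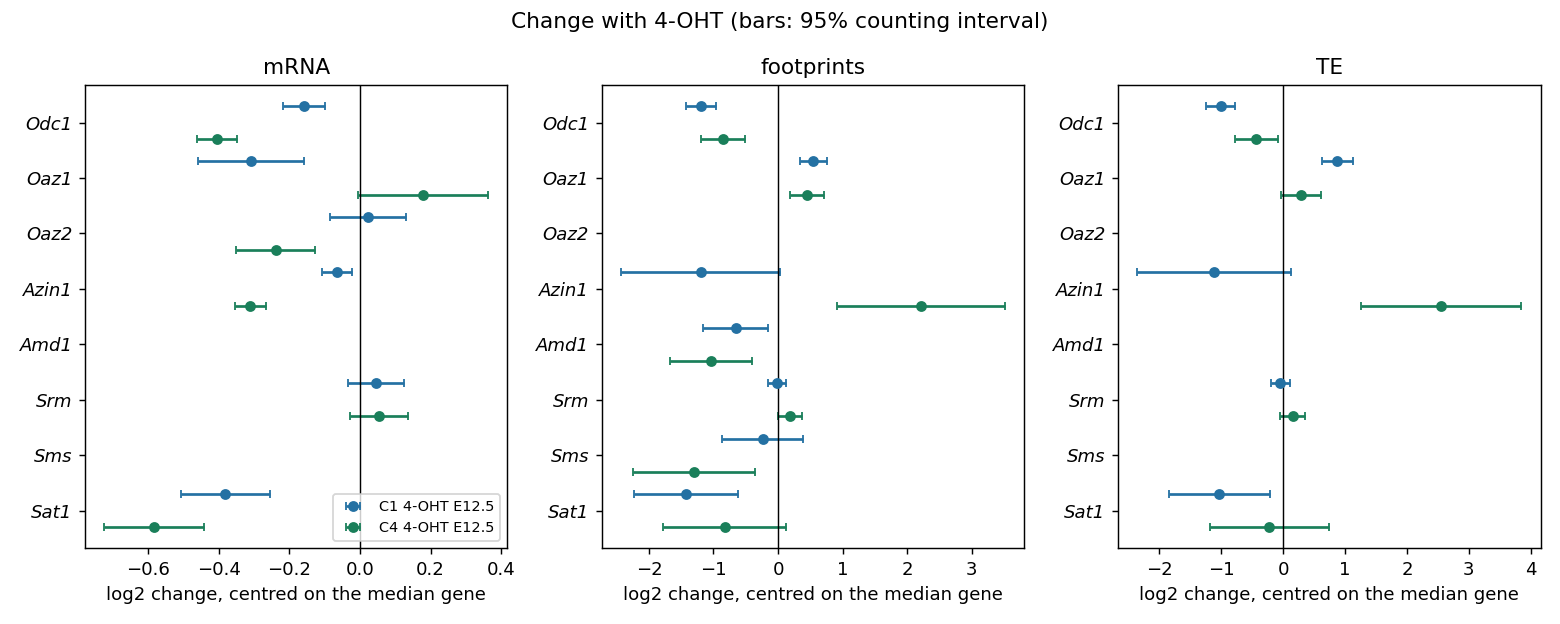
Change with 4-OHT in C1 and C4 cells for mRNA, footprints and TE, as the centred log2 ratio on the horizontal axis, with 95% counting intervals. Odc1 footprints are at -1.19 and -0.86 and Oaz1 footprints at 0.55 and 0.45, whereas Srm footprints are at -0.02 and 0.19.

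Within single pairs, few members passed a 1.5-fold change in mRNA. Odc1 passed upward in tetO-Msi1 and tetO-Msi2 cells at E12.5, Oaz1 downward in tetO-Msi2 cells, and Sat1 downward in tetO-Msi1 cells at E13.5. That is 1 of 6, 2 of 6 and 1 of 6 members with a value, where 5.5%, 4.73% and 9.52% of all genes passed. No member passed in KH2 cells, C1 cells or C4 cells, where 1.7%, 2.47% and 7.46% of genes passed.

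The wider polyamine list held 29 genes for ornithine and methionine supply, breakdown, transport, hypusine formation and the regulators Myc and Mycn. In tetO-Msi1 cells given Dox, 1 of the 23 genes tested was higher and 1 was lower, where 3.6% of 11938 genes were called. Mycn, a growth-promoting transcription factor, rose by 0.54 (SE 0.17, edgeR adjusted p = 0.039), and Slc7a1, a carrier of arginine and ornithine, fell by 0.74 (SE 0.18, edgeR adjusted p = 0.00331). DESeq2 called neither (adjusted p = 0.221 and 0.959), and without the E13.5 libraries Slc7a1 stood at 0.09. The median over the list was -0.01, as was that of all genes. None of the list was called by edgeR in the 4-OHT tests of mRNA (21 genes tested), footprints (22) and TE (21). Of all genes, 5.5%, 0.934% and 0% were called there. In the Dox test over the E12.5 lines (22 genes tested) and the Dox TE test (21) none was called either, against 0.451% and 0.0791% of all genes.

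The genes with the most similar mRNA pattern over the 13 conditions, among 9281 genes at 1 RPKM or more throughout, were found on the log2 RPKM scale. The 13 conditions fall into sets that differ in deposited scale. For Odc1 they were Cdk2ap2 and Ciapin1 (r = 0.989 and 0.986), and for Srm Papd7 and Hras1 (r = 0.996 and 0.996). For Oaz1 they were Pxmp4 and Slc7a4 (r = 0.914 and 0.867), and for Azin1 Gclm and Uchl1 (r = 0.994 and 0.991). For Oaz2 they were Taldo1 and Slc39a11 (r = 0.984 and 0.982), and for Sat1 Uap1l1 and Fads3 (r = 0.932 and 0.931). On the common scale the likeness of Slc39a11 to Oaz2 was -0.38 and that of Uap1l1 to Sat1 was 0.24, whereas Ciapin1 stayed at 0.96 with Odc1 and Hras1 at 0.97 with Srm.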

How the data were processed

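RNA-Seq and Ribo-Seq tables of mouse neural stem cells were used as deposited, aligned to mm9 (Bowtie and TopHat are named in the submitters' processing notes, with no versions). The authors deposited whole read counts per gene and RPKM values for both assays, with RPKM computed by the authors over constitutive exons (coding exons only for Ribo-Seq). Conditions and pairs of libraries were grouped from the sample labels, and the technical pair was summed as 1 sample. Counts were tested with edgeR (4.0.16) by quasi-likelihood F-tests after TMM scaling, keeping genes that reached 1 CPM in 2 or more libraries, with line or stage as a block and treatment as the term, and TE as the assay-by-treatment term. P-values were Benjamini-Hochberg adjusted over all genes tested. Residual degrees of freedom were 1 or 2. Prior degrees of freedom, which weigh the spread pooled over all genes, ran from 4.84 (4-OHT TE) to infinite (Dox in tetO-Msi1 cells, both stages). SE is the log2 change over the root of F. DESeq2 (1.42.0) was an alternative. Pair changes used RPKM ratios centred on the median gene (mean RPKM at least 1, or more than 5 reads), with Poisson intervals from the counts. The scripts were tested on simulated data. The members and gene lists were chosen with earlier results of these data known. Named genes were the 8 members, wider-list genes at adjusted p under 0.05, the targeted genes, and for each member the 2 genes with the highest Pearson r.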

Additional observations from a re-analysis of the deposited data

Results flagged for a closer look

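Odc1 mRNA and Sat1 footprints moved in opposite directions in control and transgenic cells given Dox, with counting intervals that left out 0 in both. The centred log2 change of Odc1 mRNA at E12.5 was -0.23 for KH2, 0.69 for tetO-Msi1 and 1.11 for tetO-Msi2. That of Sat1 footprints was 1.15 in KH2 cells and -1.11 in tetO-Msi1 cells, on 12 to 85 reads. Each is a single pair of libraries, and the difference was not tested. No group held enough samples to look for outlying libraries.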

How the results depend on the processing

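Of the member and named-gene values recomputed, 307 stayed within their error or kept their direction and side of the threshold. Another 28 moved by more than their error, 11 lost and 5 gained a call, and 4 were counted as turned. The 4 were not called before in 3 cases: with technical library 1 alone, Oaz1 and Srm in tetO-Msi1 cells stood at 0.077 and 0.057, and with 1 line left out Srm over the E12.5 lines ran from -0.25 to 0.062. The fourth was Slc7a1, at 0.094 without the E13.5 libraries and -1.16 without those of E12.5. The cause was not tested. A change of sign was counted as a turn in refitted tests, but elsewhere only for values called or past the fold limit. Smaller pair values that changed sign without centring are therefore not among the 4. Examples are Oaz1 TE in C1 cells (0.87 centred, -0.58 as deposited) and Srm mRNA in tetO-Msi1 cells at E13.5 (-0.02 and 0.07).

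The numbers of genes called moved with the block, the filter and the lines used. Without the stage or line block, 0 genes were called for Dox in tetO-Msi1 cells (58 at an unadjusted p under 0.05, edgeR), 0 for 4-OHT mRNA (1124), 2 for 4-OHT footprints, 0 for Dox over the E12.5 lines (337) and 0 for Dox TE (356). With no filter the counts were 1254 for 4-OHT mRNA, 179 for footprints, 437 for the E12.5 lines and 25 for Dox TE. DESeq2 called 104 for Dox in tetO-Msi1 cells, 3 for 4-OHT TE and 3 for Dox TE. Leaving out 1 line at E12.5 gave 24 to 510 genes, the 24 without tetO-Msi2 and the 510 without KH2. The labels give no replicate numbers shared between groups, so the block was the line or stage.

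Counts past the mRNA limit, in the order KH2, tetO-Msi1, tetO-Msi2, tetO-Msi1 at E13.5, C1 and C4, were 27, 105, 60, 180, 25 and 198 at 2-fold, and 1848, 2449, 2275, 3207, 2023 and 2757 with no RPKM filter. With a pseudocount of 0.5 RPKM they were 99, 345 and 304 at E12.5 and 157 in C1. Counts past the TE limit, in the order KH2, tetO-Msi1, C1 and C4, were 12, 10, 58 and 13 with more than 20 reads, and 471, 427, 847 and 828 at 2-fold. Not centred, C1 had 3537. With 1 length for both assays, the median untreated TE was 0.0142 for Azin1, 4.81 for Srm and 0.531 for Sat1. The footprint and mRNA lengths differ, at 102 and 700 nt for Azin1 and 909 and 83 nt for Srm. With 1 length that difference enters the TE directly, so these values are not comparable between genes. Azin1 and Sms footprints were limited by depth.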
